A study of Mus musculus with 36 samples.

Results

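Mouse intestinal organoids treated for 6 h with all-trans retinoic acid (atRA, 10 µM, which the labels write as μm) were compared with organoids given the vehicle DMSO for 6 h. The comparison uses 8 of the 36 libraries of the study, chosen by the treatment and time in their labels, with 4 libraries in each group. Both groups hold the same 2 organoid cultures, grown from male wild-type C57BL/6 littermates aged 8 weeks, and RNA was purified in duplicate from each culture after 3 wells had been pooled. The unit of replication is therefore the mouse (n = 2), and the duplicates measure the spread within a culture. In every group, organoids were seeded as single cells and grown for 3 days in ENR medium (EGF, Noggin and R-spondin) with Wnt3a-conditioned medium, the ROCK inhibitor Y-27632 and the GSK3 inhibitor CHIR99021. The switch to ENR medium without these additions coincided with the start of treatment, so both groups had left them 6 h earlier. The medium contained the B27 supplement. Its usual formulation includes a vitamin A ester, and the labels do not say which formulation was used.

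Retinoic acid is the active metabolite of vitamin A. It binds retinoic acid receptors, which pair with retinoid X receptors (RXR) on DNA and switch transcription of target genes, among them genes that dampen the signal: enzymes that degrade retinoic acid, that return retinaldehyde to retinol or that limit carotenoid uptake. In the intestine, vitamin A is absorbed and esterified in enterocytes, and RXR is also the partner of receptors for bile acids (FXR), fatty acids (PPAR) and oxysterols (LXR).

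Depth in the 8 libraries was 21.8 to 28.3 M (1e6) reads over the listed genes. The cultures carried epithelial transcripts, with Epcam, an epithelial adhesion protein, at 439 to 560 RPKM (reads per kilobase of transcript, scaled for depth) and Vil1, a microvillus protein, at 332 to 370 RPKM. Cdx2, the intestinal homeobox factor, stood at 54.4 to 74.6 RPKM. Markers of stem and goblet cells differed among themselves. Lgr5 stood at 0.155 to 0.349 RPKM beside Olfm4, also of stem cells, at 1.06 to 5.27 RPKM, and the mucin Muc2 at 0.226 to 0.278 RPKM beside the goblet cell peptide Tff3 at 71 to 119 RPKM, while Clu and Anxa1, genes of the regenerating epithelium, reached 2410 to 3080 and 602 to 845 RPKM. Non-epithelial markers were low in both groups. Of 22 listed, 4 passed the filter on low values and 0 of 4 were called. The summed level of the 7 members in the table, with those below the filter, was 9.5 to 11.5 RPKM with DMSO and 10.8 to 12.1 RPKM with atRA, and Pdgfrb, a pericyte marker, was at most 0.113 RPKM in the 8 libraries. The duplicates of atRA mouse 2 differed more from each other than those of any other culture and condition. In 2 atRA libraries, duplicate 1 of mouse 1 and duplicate 2 of mouse 2, long genes read higher relative to short ones (0.253 and 0.204 log2 between the longest and the shortest genes, 20% of genes each), against -0.0231 and 0.0536 in the other atRA libraries and -0.0229 to 0.0847 with DMSO. Removing this trend from each library, an alternative chosen after seeing the data, gave 621 called genes at 6 h in place of 529, with 498 shared.

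At 6 h, atRA changed few genes and most by less than 2-fold. Of 11361 genes tested, 529 were called (4.66%), 317 higher (2.79%) and 212 lower (1.87%), where called means an adjusted p below 0.05 in the limma fit. Folds in this text are of RPKM + 0.5, which shrinks changes at low levels. By that measure, the 14 called genes that changed by at least 2-fold were all higher, and 0 were lower by that much. Called genes at low levels can miss this cut, such as Cyp26b1, with mean RPKM of 0.0318 and 0.338 (DMSO, then atRA), and Lor, with 2.005 and 0.999. At 1.5-fold the counts were 60 higher and 12 lower. The median log2 fold change was 0.37 among the higher genes, -0.30 among the lower ones and -0.012 over all tested genes. Each of the 529 genes had the same sign in both mice. The call itself favours this, because it needs a mean change that is large beside the spread between cultures. In 259 of the 317 higher genes and 144 of the 212 lower genes the 4 atRA libraries lay wholly outside the range of the 4 DMSO libraries. Over all tested genes, called or not, 4.67% were higher and 4.34% lower by that criterion. Changes were somewhat larger in mouse 1, with medians of 0.41 and -0.35 for the called genes, than in mouse 2, with 0.34 and -0.26. Fits without 1 mouse, here and below, had no block and treated the duplicates of the other culture as replicates. Their p-values therefore measure the spread within 1 culture. The total of called genes leaned on single libraries and on the block for the mouse. It was 177 without the block, 229 without mouse 1, 1003 without mouse 2, 1061 without duplicate 1 of atRA mouse 2 and 916 without duplicate 2 of DMSO mouse 2.

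**Figure D1:**
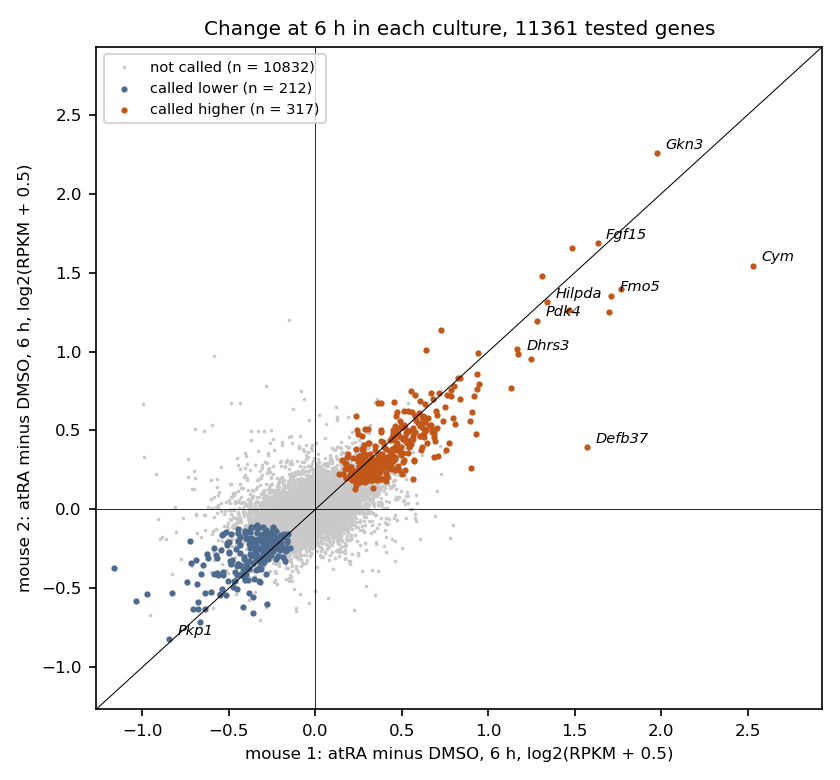
Change in expression at 6 h, atRA minus DMSO on the scale of log2(RPKM + 0.5), in mouse 1 (horizontal axis) and mouse 2 (vertical axis) for 11361 tested genes; orange points are the 317 called higher, blue points the 212 called lower and grey points the rest, and the diagonal marks equal change. The called genes lie in the upper right and lower left, and Defb37 lies far off the diagonal with 1.57 in mouse 1 and 0.40 in mouse 2.

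Sequence in the genes' promoters was set beside these calls, because paired half-sites spaced by 5 bases (a direct repeat, DR5) are the classic binding element of retinoic acid receptors. The consensus half-site AGGTCA was searched along with its close variants AGTTCA and, besides, GGGTCA as well as the doubly changed GGTTCA, in any pairing and on both strands, from 250 bases before to 50 bases after each RefSeq gene start (GRCm38.p6). Of the tested genes, 9088 had a promoter entry and 4 held a DR5 (0.044%), against 32 of all 32851 promoters (0.0974%). Among genes called higher, 2 of 252 held one (0.794%), namely Ppbp and Tnfsf13b, and among genes called lower 0 of 171 did. Blvrb and Prss27, which also held one, were not called. The same half-sites spaced by 1 base (DR1) were in 25 tested genes (0.275%), spaced by 2 bases (DR2) in 10 (0.11%) and inverted with 1 base between (IR1) in 2 (0.022%), and 0 of these were called in either direction. The search was widened from the named genes to all tested genes after the named genes had shown no DR5, so these 4 genes were singled out after their values were seen. The sites are printed to show how the letters of tested genes compare with those the same search found before Rarb and Cyp26a1, textbook retinoic acid targets whose expression was not analysed here. Half-sites are in capitals, read 5′ to 3′ along the strand that carries them.
Ppbp (chr5:90768272-90768288, minus strand): AGGTCAgacctAGGTCA
Tnfsf13b (chr8:10006245-10006261, plus strand): AGTTCAgatggAGTTCA
Blvrb (chr7:27452399-27452415, minus strand): AGTTCAaagccAGTTCA
Prss27 (chr17:24038094-24038110, plus strand): AGTTCAgggccGGGTCA
Rarb (chr14:16575513-16575529, minus strand): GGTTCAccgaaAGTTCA
Cyp26a1 (chr19:37697776-37697792, minus strand): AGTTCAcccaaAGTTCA
The first base of the match, read along the gene, lay at -246 from the start of Ppbp, -222 of Tnfsf13b, -149 of Prss27, -19 of Blvrb, -53 of Rarb and -32 of Cyp26a1. For both genes that were called, the 250 bases before the start are given along the gene, with the half-sites in capitals, so that the distance to the start can be seen.
Ppbp, plus strand, chr5:90768268-90768517: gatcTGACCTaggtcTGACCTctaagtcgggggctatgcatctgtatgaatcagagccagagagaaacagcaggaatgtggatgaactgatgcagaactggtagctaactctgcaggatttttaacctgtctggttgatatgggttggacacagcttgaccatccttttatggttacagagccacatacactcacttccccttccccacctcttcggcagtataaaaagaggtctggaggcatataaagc
Tnfsf13b, plus strand, chr8:10006217-10006466: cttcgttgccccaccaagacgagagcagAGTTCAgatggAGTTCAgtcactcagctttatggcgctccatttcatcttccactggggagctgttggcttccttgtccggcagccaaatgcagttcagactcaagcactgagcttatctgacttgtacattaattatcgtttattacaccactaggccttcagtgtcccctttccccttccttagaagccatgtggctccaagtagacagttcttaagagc
A match of letters is a description and not evidence of binding, and receptors also act from sites outside this window.

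Ppbp encodes a platelet basic protein of the CXC chemokine family. It stood at 0.264, 0.442, 0.233 and 0.380 RPKM with DMSO (duplicates of mouse 1, then of mouse 2, an order kept throughout) and at 0.911, 0.898, 1.01 and 1.56 RPKM with atRA. The groups did not overlap, but the level was low in both. The log2 fold change, on the scale of log2(RPKM + 0.5), was 0.93 ± 0.194 (SE, adjusted p = 0.0145), and this call was lost without the block for the mouse (adjusted p = 0.0634). Tnfsf13b, the B cell activating factor of the tumour necrosis factor family, rose by 0.65 ± 0.0977 (adjusted p = 0.00207), from 1.07 ± 0.149 to 1.96 ± 0.0205 RPKM (mean ± SD, n = 2 mice). At 24 h both were higher with atRA, by 1.29 for Ppbp (adjusted p = 0.000235) and 0.79 for Tnfsf13b (adjusted p = 5.29e-05). Blvrb, a biliverdin reductase, was at 0.05 ± 0.0762 and Prss27, a serine protease, at 0.35 ± 0.182.

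Among genes that clear or limit retinoic acid, 3 of 11 tested rose and 0 fell (median 0.10). Over all tested genes 2.79% rose and 1.87% fell, and every list count at 6 h is to be read beside these shares. Dhrs3, which reduces retinaldehyde back to retinol (chromosome 4, 144892534 to 144928209, GRCm38), read 8.52, 9.5, 11.5 and 9.68 RPKM with DMSO and 21.2, 20.6, 22.9 and 20.0 RPKM with atRA. Every atRA library was well above every DMSO library. The change was 1.08 ± 0.0953 (95% interval 0.87 to 1.28, adjusted p = 3.68e-05). Isx, a homeobox factor that represses the carotenoid-cleaving enzyme Bco1 and the uptake receptor Scarb1, read 57.1, 62.4, 78.2 and 73.8 RPKM with DMSO and 94.9, 95.9, 118 and 103 RPKM with atRA. It rose by 0.60 ± 0.102 (adjusted p = 0.00459), and this call was lost without the block (adjusted p = 0.182). Bco1 was at -0.24 ± 0.0770 (adjusted p = 0.0986) and Scarb1 at -0.11 ± 0.0669 (adjusted p = 0.357).

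Cyp26b1, a cytochrome P450 that oxidizes retinoic acid (chromosome 6, 84571414 to 84593908), was barely detected. With DMSO it read 0.0770, 0.0226, 0.0204 and 0.00706 RPKM, from 1 to 10 reads a library, and with atRA 0.398, 0.249, 0.426 and 0.280 RPKM. The groups did not overlap. On the log2(RPKM + 0.5) scale, which shrinks changes at such levels, it rose by 0.65 ± 0.122 (adjusted p = 0.00768), and a pseudocount of 1 ended the call (0.37, adjusted p = 0.0519). Stra6, the receptor for retinol bound to its plasma carrier, read 1.04 to 1.64 RPKM with DMSO and 1.70 to 2.84 RPKM with atRA, a change of 0.52 ± 0.144 that missed the threshold (adjusted p = 0.0575) although the groups did not overlap.

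Of 11 tested genes for enzymes that make retinoic acid, 0 were called in either direction (median 0.11). Rdh10, a retinol dehydrogenase, was at 0.21 ± 0.0630 (adjusted p = 0.0820), and Aldh1a1, which oxidizes retinaldehyde to retinoic acid, at 0.16 ± 0.117 (adjusted p = 0.481). Rbp2, the retinol carrier of enterocytes, was at -0.03 ± 0.113. Of 13 receptor and coregulator genes, 0 rose and 1 fell (median -0.11). That gene was Ppard, a fatty acid receptor that pairs with RXR, at -0.30 ± 0.0688 (adjusted p = 0.0229), and its call was lost without the block (adjusted p = 0.379), without mouse 1 (0.220), without duplicate 1 of DMSO mouse 2 (0.0714) and without duplicate 2 of atRA mouse 2 (0.0594). Rara and Rarg, both retinoic acid receptors, were at -0.01 ± 0.0620 and 0.12 ± 0.0794, with intervals of -0.14 to 0.12 and -0.05 to 0.29. Rxra, a retinoid X receptor, was at -0.22 ± 0.0580 (adjusted p = 0.0514).

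The wider list of retinoic acid response genes held 30 names, of which 12 were tested, 3 rose and 1 fell. Beside Dhrs3 and Cyp26b1, the third that rose was Tgm2, a transglutaminase, by 0.30 ± 0.0677 (adjusted p = 0.0233), a call lost without the block (adjusted p = 0.149) and without either mouse (0.0511 without mouse 1 and 0.0603 without mouse 2). Sox9, a transcription factor of crypt cells, fell by 0.33 ± 0.0707 on the log2 scale (adjusted p = 0.0164) and lost its call without the block (adjusted p = 0.184) and without mouse 1 (-0.15, adjusted p = 0.480). Cdx1, an intestinal homeobox factor and known retinoic acid target, went from 67.5 to 88.6 RPKM with DMSO to 48.1 to 63.8 RPKM with atRA. The groups did not overlap, and the change of -0.43 ± 0.117 missed the threshold (adjusted p = 0.0552).

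**Figure D2:**
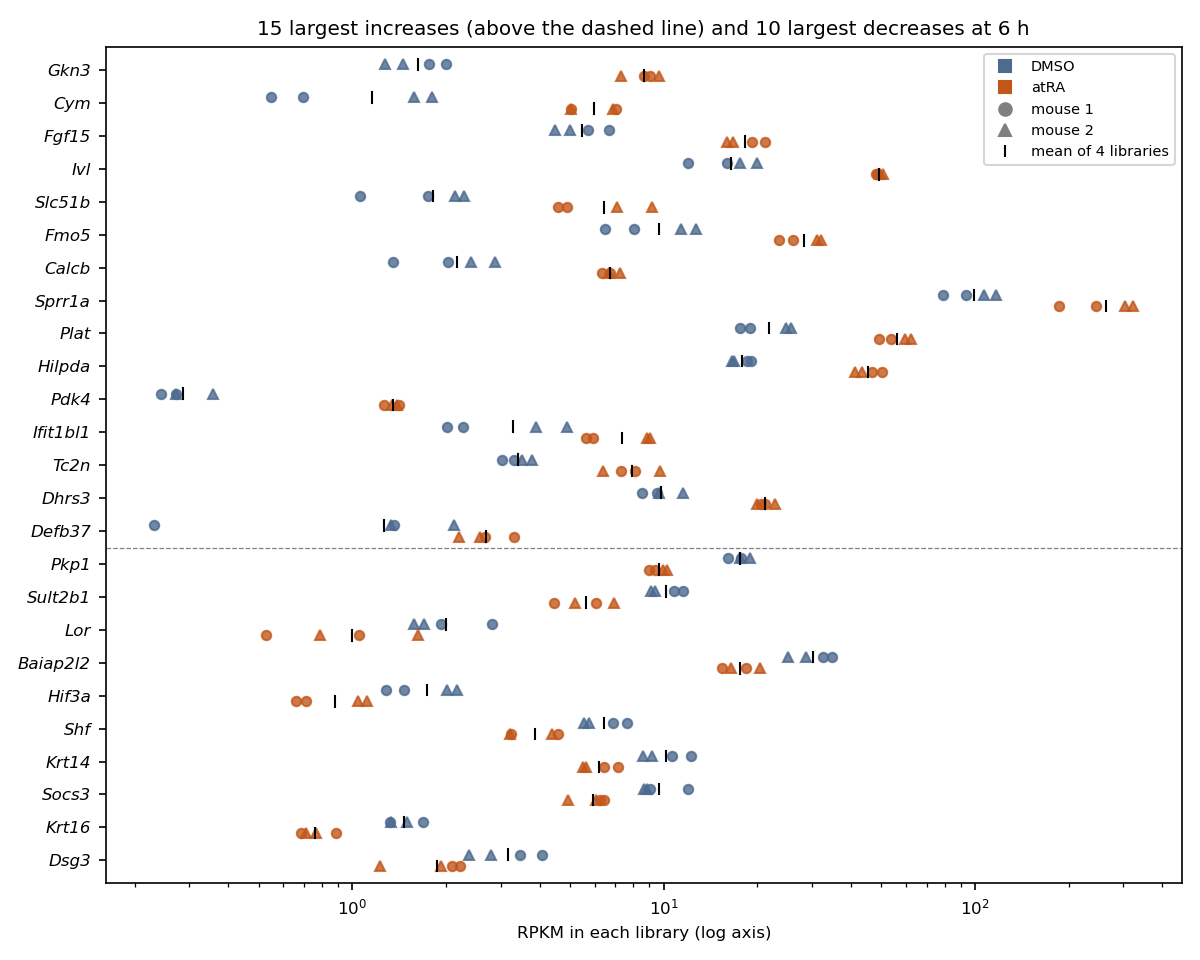
RPKM on a log axis in each of the 8 libraries for the 15 largest increases (above the dashed line) and the 10 largest decreases; blue is DMSO, orange atRA, circles mouse 1, triangles mouse 2, and the short bar the mean of 4 libraries. The orange and blue points of 24 of the 25 genes do not overlap, Lor being the exception.

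The largest increases came from genes with varied roles. Gkn3, a gastrokine of the stomach lining (chromosome 6, 87383319 to 87388935), read 2.00, 1.76, 1.45 and 1.27 RPKM with DMSO and 8.64, 9.06, 9.69 and 7.28 RPKM with atRA. The rise was 4.34-fold in RPKM + 0.5 (2.12 ± 0.191, adjusted p = 3.68e-05), which is smaller than the ratio of the RPKM means, 1.62 and 8.67. Cym, the milk-clotting stomach protease chymosin (chromosome 3, 107211295 to 107221732), rose 4.11-fold on the same scale (2.04 ± 0.293, adjusted p = 0.00147). Its DMSO level depended on the culture, 0.694 and 0.549 RPKM in mouse 1 against 1.81 and 1.57 RPKM in mouse 2, whereas all atRA libraries read 5.04 to 7.03 RPKM. Of 8 stomach genes tested, these were the only 2 higher, and Vsig1, an adhesion protein of stomach epithelium, was called lower at -0.25 ± 0.0660 (adjusted p = 0.0477). Vsig1 stayed called in 10 of 24 alternative analyses, and it was lost without the block (adjusted p = 0.579), without mouse 1 (0.137), without mouse 2 (0.153) and without any of 4 single libraries (0.0516 to 0.119). Tff1, a stomach trefoil peptide, was at 0.35 ± 0.0950 (adjusted p = 0.0536).

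Other large increases were Calcb, a calcitonin gene-related peptide, by 1.47 ± 0.159, and Plat, the tissue plasminogen activator, by 1.36 ± 0.105. Plat read 17.6 to 25.6 RPKM with DMSO and 49.3 to 62.5 RPKM with atRA. Hilpda, a lipid droplet protein that inhibits triglyceride breakdown, read 16.6 to 19.1 RPKM with DMSO and 41.2 to 50.4 RPKM with atRA, and its change was nearly equal in the 2 mice (1.34 and 1.31). Tc2n, a protein with tandem C2 domains, rose by 1.09 ± 0.0981. Ifit1bl1, an interferon-induced protein, rose by 1.10 ± 0.107 (adjusted p = 6.46e-05) and lost its call without the block (adjusted p = 0.177). The last of the 15, the beta-defensin gene Defb37, was called at 0.98 ± 0.261 (adjusted p = 0.0499) on 0.232 to 2.12 RPKM with DMSO and 2.20 to 3.31 RPKM with atRA. Its call was lost without the block (adjusted p = 0.190), without mouse 1 (0.40, adjusted p = 0.464) and without duplicate 1 of DMSO mouse 1 (0.142), duplicate 1 of DMSO mouse 2 (0.132), duplicate 1 of atRA mouse 1 (0.0534) or duplicate 2 of atRA mouse 2 (0.0925).

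A further 4 genes were picked after their values were seen. Rnase4, a secreted ribonuclease, had the smallest p of all tested genes, rising by 0.83 ± 0.0460 (adjusted p = 1.61e-06) from 19.6, 22.2, 23 and 24.1 RPKM to 36.6, 38.0, 41.1 and 43.4 RPKM. Csf2, which encodes a growth factor for granulocytes and macrophages, rose by 0.97 ± 0.109 (adjusted p = 0.000231), a call lost without the block (adjusted p = 0.177). Slc40a1, the iron exporter ferroportin, rose by 0.73 ± 0.0806 (adjusted p = 0.000198), also lost without the block (adjusted p = 0.10). Duox2, an oxidase that makes hydrogen peroxide at the cell surface, rose by 0.70 ± 0.111 (adjusted p = 0.00279), from 0.937 ± 0.252 to 1.82 ± 0.0950 RPKM, and lost its call without mouse 1 (0.48, adjusted p = 0.0511).

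The bile acid response was the list with the highest median at 6 h. Bile acids activate FXR in enterocytes, and its targets include the hormone Fgf15 and the 2 subunits of the basolateral bile acid exporter. Of 11 tested FXR response genes, 4 rose, 0 fell and all 11 were positive in sign (median 0.29), as were 5166 of all 11361 tested genes. Fgf15, which signals to the liver to curb bile acid synthesis (chromosome 7, 144896532 to 144900953), read 6.65, 5.71, 4.49 and 5.00 RPKM with DMSO and 19.3, 21.1, 16.7 and 16 RPKM with atRA. It rose 3.16-fold in RPKM + 0.5 (1.66 ± 0.110, adjusted p = 4.77e-06). Slc51b, one exporter subunit, read 1.75, 1.06, 2.29 and 2.14 RPKM with DMSO and 4.59, 4.91, 9.18 and 7.09 RPKM with atRA (1.57 ± 0.235, adjusted p = 0.00200). Mouse 2 was the higher culture in both groups. Slc51a, the partner subunit, rose by 0.58 ± 0.0890 (adjusted p = 0.00232) and Osgin1, an oxidative stress-induced growth inhibitor, by 0.53 ± 0.0707 (adjusted p = 0.000933). Only Osgin1 lost its call without the block (adjusted p = 0.0550). The receptor itself, Nr1h4, was at 0.16 ± 0.0656 (adjusted p = 0.193). Nr0b2, the corepressor SHP, read 0.0583 to 0.254 RPKM with DMSO and 0.190 to 0.524 RPKM with atRA and was not called (adjusted p = 0.102). Fabp6, which carries bile acids inside ileal cells, was listed at 0 in 4 DMSO libraries and in both atRA libraries of mouse 2, and at 0.439 and 0.0681 RPKM in those of mouse 1.

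PPAR target genes, which serve fatty acid oxidation and lipid storage, rose at 11 of 35 tested and fell at 0 (median 0.17). Pdk4, a kinase that slows glucose oxidation by blocking pyruvate dehydrogenase, read 0.272, 0.242, 0.271 and 0.357 RPKM with DMSO and 1.41, 1.27, 1.39 and 1.34 RPKM with atRA. The 2 groups were each tight and far apart, and the change of 1.24 ± 0.0752 (adjusted p = 2.44e-06) understates the ratio because of the pseudocount. Vnn1, a pantetheinase, rose by 0.83 ± 0.0741 (adjusted p = 3.68e-05), from 9.99 ± 1.23 to 18.2 ± 2.13 RPKM. Cpt1a, the gatekeeper of fatty acid entry into mitochondria, read 48.5 to 54.8 RPKM with DMSO and 64.4 to 69.3 RPKM with atRA (0.37 ± 0.0495, adjusted p = 0.000879). Acot2, a mitochondrial acyl-CoA thioesterase, rose by 0.83 ± 0.123 (adjusted p = 0.00198) and its near-identical neighbour Acot1 by 0.65 ± 0.101 (lost without the block, adjusted p = 0.0844), although reads of the pair cannot be assigned with certainty. Others that rose included Slc25a20, Me1, Cidec, Angptl4 and Cpt2, by 0.23 (Me1) to 0.37 (Cidec). The receptor gene Ppara, named after its value was seen, read 3.84 to 6.18 RPKM with DMSO and 8.01 to 9.94 RPKM with atRA, a rise of 0.85 ± 0.0765 (adjusted p = 3.68e-05). Without the block, 4 PPAR target genes were higher, and with voom on recovered reads 18.

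Changes of sterol genes were small, mostly positive among LXR targets and mostly negative among cholesterol synthesis genes. Of 13 LXR target genes, 3 rose and 0 fell (median 0.22): Scd2, a fatty acid desaturase, by 0.22 ± 0.0481, Abcg5, the partner of Abcg8 in the pump that returns sterols to the gut lumen, by 0.37 ± 0.0837, and Smpdl3a, a phosphodiesterase, by 0.23 ± 0.0578. The count was 5 without duplicate 2 of DMSO mouse 1, duplicate 2 of DMSO mouse 2, duplicate 1 of atRA mouse 1 or duplicate 1 of atRA mouse 2, and 1 without duplicate 2 of atRA mouse 2. All 3 lost their calls without mouse 1 (adjusted p = 0.199, 0.160 and 0.246), and Abcg5 and Smpdl3a also without the block (0.432 and 0.171). The cholesterol exporter Abca1 read 0.214 to 0.242 RPKM with DMSO and 0.292 to 0.406 RPKM with atRA, which did not overlap, and was not called (0.21 ± 0.113, adjusted p = 0.304). Of 25 cholesterol synthesis genes, 1 was positive in sign, beside 5166 of 11361 over all genes, and 2 were called lower (median -0.10), among them Mvk, mevalonate kinase, at -0.26 ± 0.0672 (adjusted p = 0.0432, and 0.106 without the block). The summed level of the list was 1875 to 1905 RPKM with DMSO and 1735 to 1781 RPKM with atRA. The count was 0 without the block, without mouse 1, without duplicate 1 of DMSO mouse 2 and without duplicate 2 of atRA mouse 2, and 4 without duplicate 2 of DMSO mouse 2 or duplicate 1 of atRA mouse 2.

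Of 31 drug metabolism enzymes and regulators, 3 rose and 0 fell (median 0.10). Fmo5, a flavin-containing monooxygenase, read 6.48, 8.04, 12.7 and 11.3 RPKM with DMSO and 23.5, 26.1, 31.0 and 31.9 RPKM with atRA. It rose 2.89-fold in RPKM + 0.5 (1.53 ± 0.119, adjusted p = 1.42e-05), with mouse 2 above mouse 1 in both groups. Nr1i2, the xenobiotic receptor PXR, rose by 0.26 ± 0.0503 (adjusted p = 0.00980, and 0.0572 without mouse 2). Cyp2c65, a cytochrome P450, rose by 0.32 ± 0.0833 (adjusted p = 0.0439) and lost its call without the block (adjusted p = 0.217), without mouse 1 (0.153) and without 3 single libraries, namely duplicate 1 of DMSO mouse 1 (0.0608), duplicate 1 of DMSO mouse 2 (0.0538) and duplicate 2 of atRA mouse 2 (0.0925). The count of 3 became 6 without mouse 2 and 5 without duplicate 1 of atRA mouse 1. Cyp1a1, the main target of the aryl hydrocarbon receptor, was the 1 gene of 6 in that list called, at -0.46 ± 0.110 (adjusted p = 0.0299). It was lost without the block (adjusted p = 0.120), without mouse 2 (0.0890), without duplicate 1 of DMSO mouse 1 (0.0517) and without duplicate 2 of atRA mouse 2 (0.0534).

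Interferon response genes rose at 8 of 27 tested and fell at 0 (median 0.17), with 24 of 27 positive in sign beside 5166 of 11361 over all genes. Irf1, a transcription factor of the interferon response, read 14.8, 14.6, 15.7 and 15.3 RPKM with DMSO and 20.8, 24.5, 23.3 and 21.8 RPKM with atRA. It rose by 0.57 ± 0.0492 (adjusted p = 3.68e-05), with groups far apart and mice alike. Oasl1, an oligoadenylate synthetase-like antiviral protein, read 15.8 to 17 RPKM with DMSO and 22.7 to 23.7 RPKM with atRA (0.48 ± 0.0748, adjusted p = 0.00252). Oasl2, Parp9, Parp14, Rtp4, Ddx58 and Ifih1 made up the 8, at 0.25 to 0.55. The count was 2 without mouse 1 and 3 without the block. Of 15 antigen presentation genes, 0 were called (median 0.068), with Psmb8, an immunoproteasome subunit, at 0.42 ± 0.135 (adjusted p = 0.0934).

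NRF2 antioxidant genes rose at 5 of 18 and fell at 0 (median 0.13). They were Hmox1, which breaks down heme, by 0.33 ± 0.0524 (adjusted p = 0.00300), Srxn1, sulfiredoxin, by 0.30 ± 0.0439 (adjusted p = 0.00151), Gclm, a subunit of the glutathione-making ligase, by 0.28 ± 0.0542 (adjusted p = 0.00858), Me1, malic enzyme, and Txnrd1, thioredoxin reductase. Nqo1, a quinone reductase often used as the reporter of this pathway, was at 0.06 ± 0.0535 (interval -0.06 to 0.17). The count was 2 without mouse 1 and 3 without the block. Of 22 integrated stress response genes, 0 rose and 1 fell, Phgdh, the first enzyme of serine synthesis, at -0.24 ± 0.0598 (adjusted p = 0.0365). Its call was lost without the block (adjusted p = 0.0733), without mouse 1 (0.479) and without duplicate 1 of DMSO mouse 2 (0.133), duplicate 2 of atRA mouse 1 (0.106) or duplicate 2 of atRA mouse 2 (0.166).

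**Figure D3:**
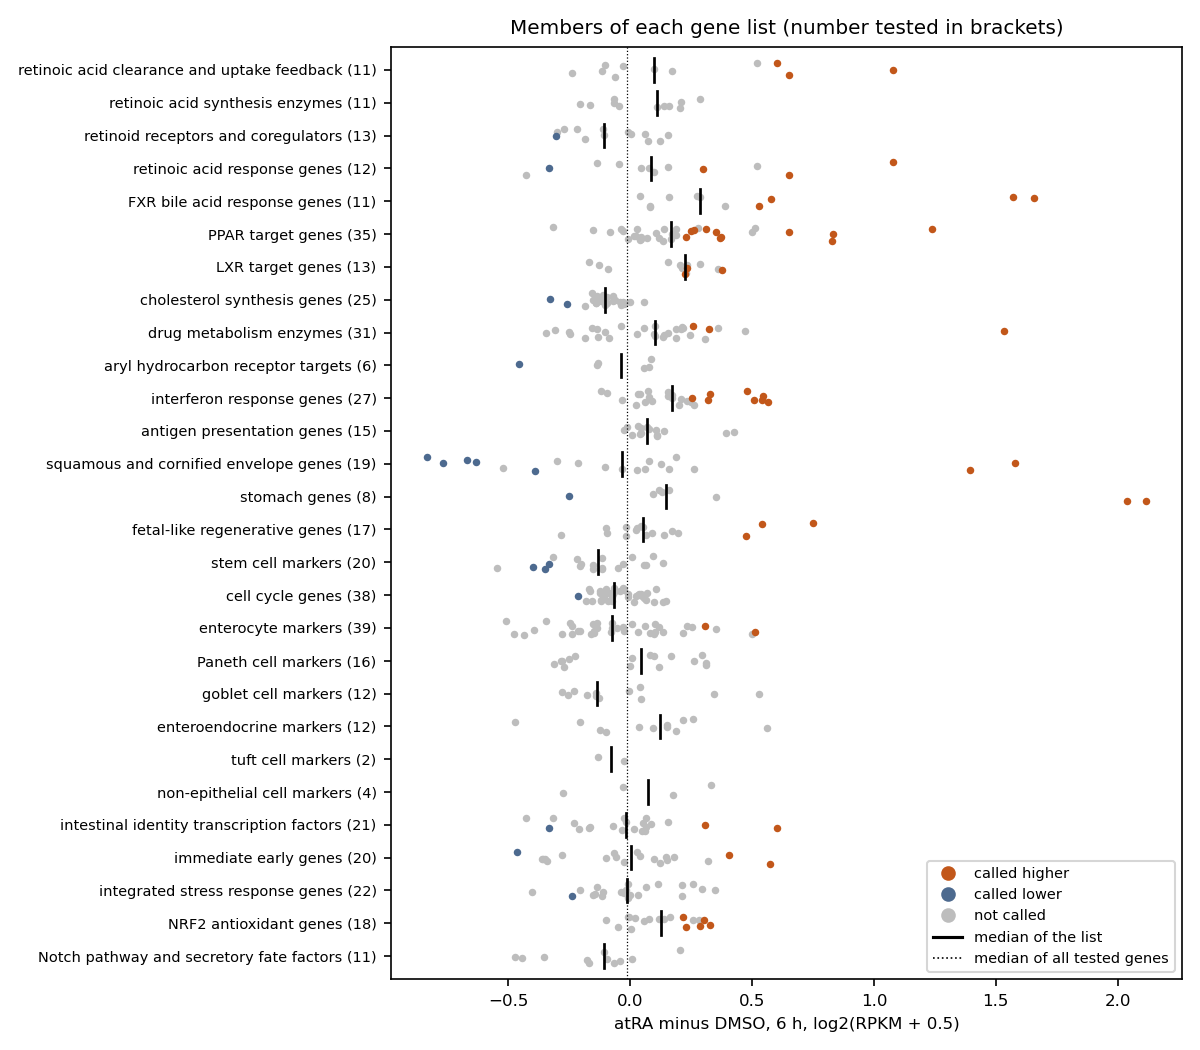
Log2 fold change at 6 h of each tested member of 28 gene lists, with the number tested in brackets; orange members were called higher, blue lower, grey not called, the black bar is the list's median and the dotted line the median of all tested genes. FXR response genes have the highest median (0.29), and the squamous list spreads from -0.83 for Pkp1 to 1.58 for Ivl.

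Squamous genes moved in both directions. Of 19 tested, 2 rose and 5 fell (median -0.036). Ivl, involucrin of the cornified envelope, read 16, 12, 17.7 and 20.0 RPKM with DMSO and 48.2, 48.6, 49.6 and 50.7 RPKM with atRA (1.58 ± 0.171, adjusted p = 0.000168). Sprr1a, a small proline-rich envelope protein, went from 99.1 ± 18.1 to 264 ± 68.6 RPKM (1.40 ± 0.124), although similar Sprr genes make its read assignment uncertain. Pkp1, plakophilin of the desmosome (chromosome 1, 135871394 to 135919207), read 17.7, 16.2, 17.6 and 18.9 RPKM with DMSO and 9.40, 8.98, 9.95 and 10.2 RPKM with atRA, the largest decrease of all (-0.83 ± 0.0768, adjusted p = 4.32e-05). Krt14, a basal cell keratin, stood at -0.67 ± 0.123 (adjusted p = 0.00731), Dsg3, a desmosomal cadherin, at -0.63 ± 0.128 (adjusted p = 0.0120), Tgm1, the envelope's crosslinking enzyme, at -0.39 ± 0.0955 (adjusted p = 0.0337), and Lor, loricrin, at -0.77 ± 0.146 (adjusted p = 0.00837). The decrease of Lor rested on low and uneven levels, 1.57 to 2.82 RPKM with DMSO and 0.529 to 1.62 RPKM with atRA, which overlapped. Its call was lost without mouse 1 (-0.37, adjusted p = 0.426) and without duplicate 2 of atRA mouse 2 (0.157). The number of squamous genes lower was 8 without duplicate 1 of atRA mouse 2, 3 without duplicate 2 of atRA mouse 2 and 2 without the block, where Krt14 and Dsg3 were not called (adjusted p = 0.135 and 0.442). Tgm1 was lost without the block (adjusted p = 0.187), without mouse 2 (0.229) and without 4 single libraries (0.0533 to 0.0568).

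The other leading decreases were Sult2b1, a sulfotransferase for cholesterol (-0.81 ± 0.145), Baiap2l2, a membrane-bending protein of microvilli (-0.75 ± 0.111), Hif3a, a hypoxia-inducible factor subunit (-0.69 ± 0.111), Shf, an adaptor protein (-0.68 ± 0.0924), and Krt16, a stress keratin (-0.64 ± 0.125). Baiap2l2 read 34.6, 32.4, 28.6 and 25.1 RPKM with DMSO and 15.4, 18.4, 20.4 and 16.5 RPKM with atRA, lower in every atRA library, with more of the decrease in mouse 1 (-0.97) than in mouse 2 (-0.53). Hif3a lost its call without the block (adjusted p = 0.171), and Krt16, at 1.32 to 1.69 RPKM with DMSO, without mouse 1 (adjusted p = 0.194). Socs3, the feedback inhibitor of cytokine signalling through JAK and STAT, read 12.0, 9.06, 8.64 and 8.86 RPKM with DMSO and 6.23, 6.42, 6.06 and 4.95 RPKM with atRA (-0.65 ± 0.0612, adjusted p = 4.94e-05). Its highest DMSO value is 1 library of mouse 1, and the remaining 3 were still above every atRA library.

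Most stem cell markers were negative in sign at 6 h, though few were called, and cell cycle genes changed little. Of 20 stem cell markers tested, 0 rose and 3 fell (median -0.13). In sign, 5 were positive, beside 5166 of 11361 over all tested genes. The summed level of the 23 members in the table, with those below the filter, was 414 to 437 RPKM with DMSO and 368 to 398 RPKM with atRA. In bulk RNA such a difference cannot be told apart between fewer cells of a type and less RNA per cell. Myc, the growth regulator driven by Wnt signals, read 93.3, 77.8, 69.7 and 71.9 RPKM with DMSO and 55.8, 60.8, 60.6 and 57.6 RPKM with atRA. It fell by 0.40 ± 0.0653 on the log2 scale (adjusted p = 0.00347), more in mouse 1 (-0.54) than in mouse 2 (-0.26). Hopx, a marker of reserve stem cells, was at -0.35 ± 0.0776 (adjusted p = 0.0203), and Ascl2, a Wnt-dependent stem cell factor, at -0.55 ± 0.148 (adjusted p = 0.0539). The count of 3 was 0 without mouse 1, 5 without mouse 2 or without duplicate 2 of DMSO mouse 2, and 1 without the block. Myc was not called without the block (adjusted p = 0.0802). Without mouse 1, Myc was at -0.26 (adjusted p = 0.0822) and Hopx at -0.16 (adjusted p = 0.527). Hopx was also lost without duplicate 1 of DMSO mouse 2 (0.0794) and duplicate 2 of atRA mouse 2 (0.0733).

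Of 38 cell cycle genes, 0 rose and 1 fell (median -0.068), beside 1.87% lower over all tested genes. The 1 that fell was Ccnd2, a G1 cyclin, at -0.21 ± 0.0392 (adjusted p = 0.00731). That call was lost without the block (adjusted p = 0.396), without mouse 1 (0.158) or without mouse 2 (0.237). Mki67, the common proliferation marker, read 55.6 to 61.8 RPKM with DMSO and 54.9 to 61.8 RPKM with atRA, a change of -0.01 ± 0.0657 (interval -0.15 to 0.13).

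Markers of mature cell types were mostly not called, like most tested genes, of which 2.79% rose and 1.87% fell. Enterocyte markers rose at 2 of 39 and fell at 0 (median -0.073): Lypd8, a secreted protein that keeps flagellated bacteria from the epithelium, read 1026 to 1150 RPKM with DMSO and 1491 to 1710 RPKM with atRA (0.51 ± 0.0999, adjusted p = 0.00979), and Dgat2, an enzyme of triglyceride synthesis, rose by 0.31 ± 0.0568 (adjusted p = 0.00748). Both calls were lost without the block (adjusted p = 0.0551 and 0.0501), and the count was 4 without mouse 2 or without duplicate 2 of DMSO mouse 2. Of 16 Paneth, 12 goblet, 12 enteroendocrine and 2 tuft cell markers tested, 0 were called, with medians of 0.044, -0.14, 0.12 and -0.078, beside -0.012 for all genes. Notch pathway and secretory fate genes had 0 of 11 called (median -0.11). The nearest was Dll1, a Notch ligand of secretory precursors, which read 3.06 to 3.34 RPKM with DMSO and 1.74 to 2.58 RPKM with atRA (-0.44 ± 0.118, adjusted p = 0.0519). Of 21 intestinal identity factors, Elf3, an epithelial transcription factor, rose by 0.31 ± 0.0515 (adjusted p = 0.00432) beside Isx, and Sox9 was lower.

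Genes of the fetal-like regenerating epithelium rose at 3 of 17 and fell at 0 (median 0.052). Il33, an alarmin cytokine, read 18.5, 19.0, 19.6 and 24.2 RPKM with DMSO and 33.9, 31.5, 31.1 and 41.7 RPKM with atRA (0.75 ± 0.109, adjusted p = 0.00162). Il1rn, the antagonist of the interleukin 1 receptor, went from 202 ± 0.690 to 294 ± 6.21 RPKM (0.54 ± 0.0706, adjusted p = 0.000787). Ctgf, a matricellular target of YAP, rose by 0.47 ± 0.0948 (adjusted p = 0.0113), lost without the block (adjusted p = 0.0550). Immediate early genes had 2 of 20 higher and 1 lower (median 0.0022). Dusp1, a phosphatase of MAP kinases, rose by 0.57 ± 0.113 (adjusted p = 0.0102) and Jun by 0.41 ± 0.105 (adjusted p = 0.0439), while Egr1 stood at -0.47 ± 0.0824 (adjusted p = 0.00596, and 0.352 without the block). The number lower was 2 to 4 without mouse 2, duplicate 2 of DMSO mouse 1, duplicate 2 of DMSO mouse 2, either duplicate of atRA mouse 1 or duplicate 1 of atRA mouse 2. Jun was lost without the block (adjusted p = 0.0869), without mouse 2 (0.168) and without duplicate 2 of DMSO mouse 1 (0.117), duplicate 1 of DMSO mouse 2 (0.0794) or duplicate 2 of atRA mouse 1 (0.0991).

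The genes called at 6 h were followed to 24 h in separate libraries of the same cultures, where 38.0% of tested genes were called, 19.4% higher and 18.6% lower. Of the 317 genes higher at 6 h, 262 (82.7%) were higher at 24 h, 2 were lower and 53 were not called, and the 262 made up 11.9% of the genes higher at 24 h. Of the 212 genes lower at 6 h, 93 (43.9%) were lower at 24 h, 18 were higher and 101 were not called, and the 93 made up 4.41% of the genes lower at 24 h. The change of effect from 6 h to 24 h was itself tested and called at 17.1% of genes. Among the 317 it was called for 115, the effect being larger at 24 h for 99 and smaller or reversed for 16. Among the 212 it was called for 72, larger for 7 and smaller or reversed for 65. The differences at 24 h hold no 6 h library, but their p-values use the spread fitted over all conditions, as do the 6 h calls. Genes with a small fitted spread are called more readily at both times, which leans the shares called at 24 h upward. The test of the change of effect contains the 6 h values that chose the genes. That choice leans it toward smaller or reversed effects. Scaling to read sums changed the split at 24 h from 2203 higher and 2111 lower to 1335 and 3547, and the shares that held to 77.95% and 62.29%.

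Several early targets grew. Cyp26b1 went from 0.65 at 6 h to 3.99 at 24 h, a change of effect of 3.34 (adjusted p = 3.09e-07), and stood at 11.9 RPKM with atRA against 0.282 RPKM with DMSO at 24 h. Slc51b grew by 1.70 (adjusted p = 0.00538), to 156 against 15.7 RPKM, Fgf15 by 1.75 (adjusted p = 6.28e-05), to 56.3 against 4.88 RPKM, and Pdk4 by 2.13 (adjusted p = 3.09e-07), to 7.08 against 0.235 RPKM. For Gkn3, Cym, Ivl, Fmo5 and Hilpda the change of effect was not called. Counted by list, 30 of 35 PPAR targets, 11 of 11 FXR response genes, 22 of 27 interferon response genes and 15 of 18 NRF2 genes were higher at 24 h, and 35 of 38 cell cycle genes were lower. Over all tested genes, 19.4% were higher and 18.6% lower at 24 h. Mki67 was at -0.65 at 24 h (adjusted p = 1.04e-05), a change of effect of -0.64 (adjusted p = 0.00111).

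Dhrs3 went the other way. Its difference shrank from 1.08 to 0.54, a change of -0.54 (adjusted p = 0.0184), and at 24 h its mean was 29.3 RPKM with DMSO and 42.9 RPKM with atRA, against 9.81 and 21.1 RPKM at 6 h. Socs3, lower at 6 h, was at 0.08 at 24 h (adjusted p = 0.299), a change of 0.74 (adjusted p = 0.000328), its DMSO level having gone from 9.63 to 5.74 RPKM. Mxd1, a partner of Max that opposes Myc and was named after its values were seen, was lower at 6 h (-0.33 ± 0.0469, adjusted p = 0.00146) and higher at 24 h (0.32 ± 0.0469, adjusted p = 0.000174). Bcl3, an atypical inhibitor of NF-kappa B chosen in the same way, went from -0.31 ± 0.0778 to 0.43 ± 0.0778.

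**Figure D4:**
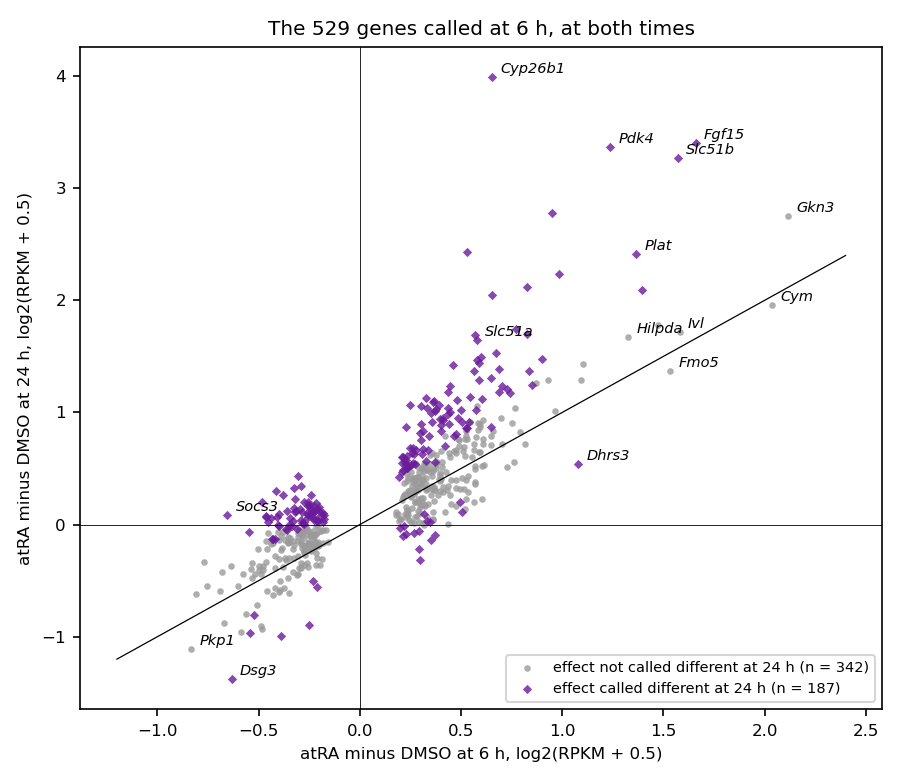
Log2 fold change of atRA against DMSO at 6 h (horizontal) and 24 h (vertical) for the 529 genes called at 6 h; purple diamonds are the 187 genes whose effect was called different between the times, grey circles the other 342, and the line marks equal effects. Cyp26b1, Pdk4, Fgf15 and Slc51b lie far above the line, and Dhrs3 lies below it.

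The 9-cis isomer of retinoic acid (9cisRA, 10 µM, 4 libraries) differs from atRA in the geometry of a double bond, and it also binds RXR. Compared directly with atRA at 6 h, 1.72% of genes were called, 1.55% higher with 9cisRA and 0.167% lower. These were 176 and 19 genes, 168 and 42 after quantile normalization, and 150 and 41 after removing the gene length trend. The log2 fold change of this comparison correlated with gene length at -0.159 (Spearman), and that of atRA against DMSO at 6 h at 0.201. Of the 317 genes that atRA raised, 32 were higher with 9cisRA, 1 was lower and 284 were not called. Of the 212 that atRA lowered, 16 were higher, 3 lower and 193 not called. The 6 h atRA libraries both chose these genes and entered this comparison. Noise in them leans the counts toward higher for genes that atRA lowered and toward lower for genes it raised. The total of 195 was 40 without the block, 58 without mouse 1, 75 without mouse 2, 95 without duplicate 1 of atRA mouse 1, 43 without duplicate 2 of atRA mouse 2, 335 without duplicate 2 of atRA mouse 1 and 695 without duplicate 1 of atRA mouse 2.

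Among genes described above, Pdk4 was 1.58 higher with 9cisRA (adjusted p = 2.24e-07, 5.04 against 1.35 RPKM), Acot1 1.42 (adjusted p = 1.71e-05), Acot2 1.28 (adjusted p = 0.000264), Abca1 1.21 (adjusted p = 0.000229), Abcg5 0.62 (adjusted p = 0.00403) and Cpt1a 0.55 (adjusted p = 0.000195). Of the list members tested, 12 of 35 PPAR targets and 6 of 13 LXR targets were higher with 9cisRA and 0 lower. Over all tested genes, 1.55% were higher and 0.167% lower. Among FXR response genes and genes that clear retinoic acid, 0 were called in either direction. Dhrs3 differed by -0.03 (interval -0.24 to 0.17), Fgf15 by 0.12 (-0.12 to 0.35), Isx by 0.08 (-0.14 to 0.30) and Slc51b by -0.15 (-0.66 to 0.35). These intervals limit how far the 2 isomers could differ at those genes and do not show that they act alike.

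**Figure D5:**
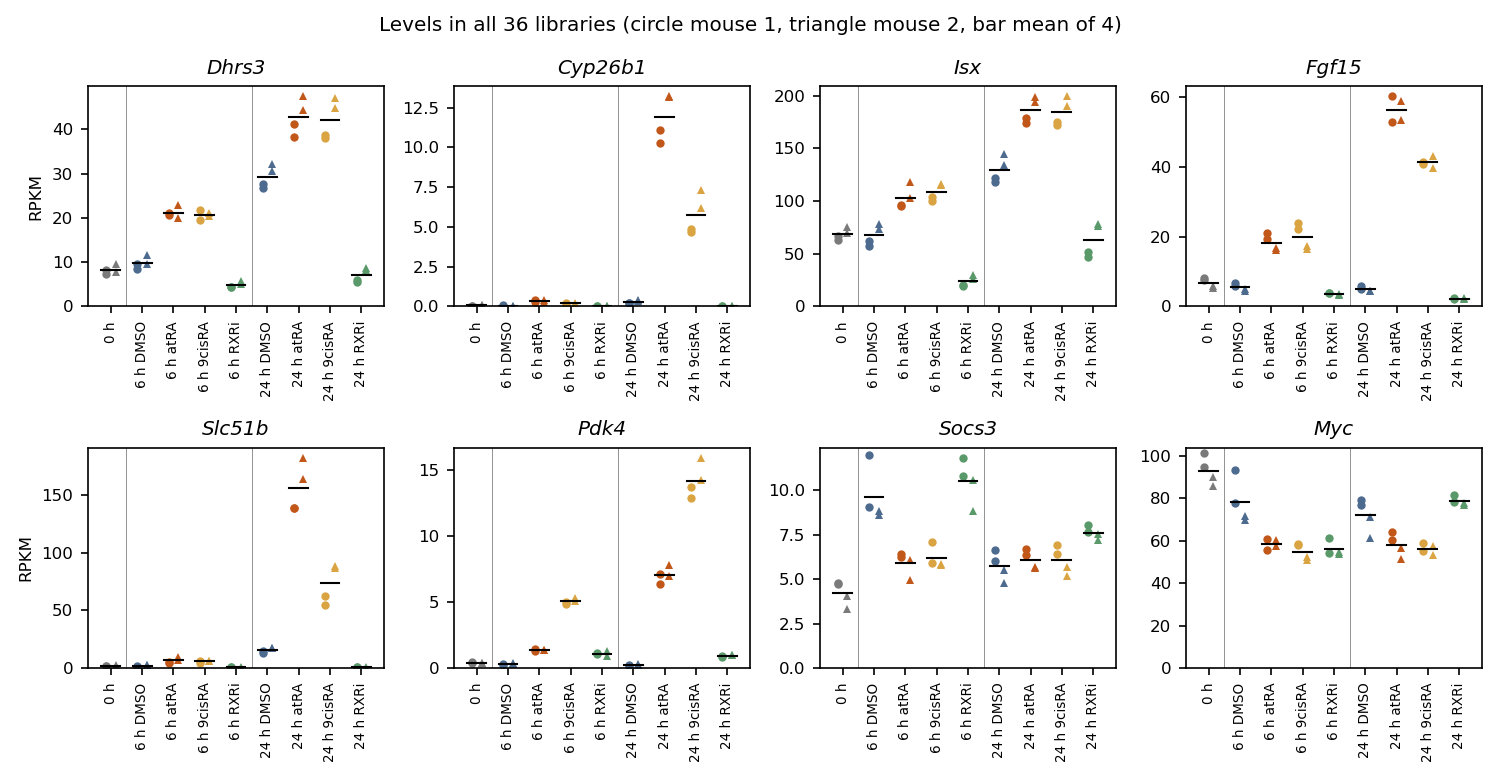
RPKM in all 36 libraries for 8 genes, by time and treatment; circles are mouse 1, triangles mouse 2 and bars the mean of 4 libraries, and RXRi is the RXR antagonist (5 µM). At 6 h, Dhrs3, Isx, Fgf15 and Slc51b are highest with the 2 retinoic acids, Pdk4 is highest with 9cisRA (5.04 RPKM), and Socs3 and Myc are lower with atRA than with DMSO.

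Levels under the RXR antagonist at 6 h are given beside those of DMSO, with no test here because both comparisons share the DMSO libraries. Slc51b stood at 0.412 RPKM with the antagonist, 1.81 RPKM with DMSO and 6.44 RPKM with atRA. Fmo5 stood at 2.97, 9.64 and 28.1 RPKM in that order, Isx at 24.1, 67.9 and 103 RPKM, and Dhrs3 at 4.86, 9.81 and 21.1 RPKM. In these 4 genes, DMSO cultures lay between the antagonist and atRA. Among the 15 largest increases, Pdk4, Ivl, Plat and Hilpda did not follow that order, and the others did. Pdk4 stood at 1.07 RPKM under the antagonist, 0.286 RPKM with DMSO and 1.35 RPKM with atRA. In the same order, Ivl stood at 28.9, 16.4 and 49.3 RPKM, Plat at 29.0, 21.7 and 56.3 RPKM, and Hilpda at 23.2, 17.8 and 45.4 RPKM. Of the 317 genes that atRA raised, 173 had a lower mean with the antagonist than with DMSO, and of the 212 it lowered, 140 did, while over all 11361 tested genes 5829 did. The 6 h DMSO libraries both chose these genes and entered these counts. Noise in them leans genes that atRA lowered toward lower with the antagonist, and genes it raised toward higher.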

How the data were processed

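The authors deposited 1 table of RPKM values per gene for 36 libraries; reads were handled with bcl2fastq 2.17 and STAR 2.5.2b on mm10, per the submitters' processing notes. The divisor behind RPKM is not given in the sources used here. Whole reads could be recovered for 100% of values (within 0.05 of a whole number), which gave the depths.

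Duplicates of a mouse and condition were averaged on log2(RPKM + 0.5), and 18 values from 9 conditions were fitted in limma 3.58.1 (R 4.3.3) with an intensity trend and the mouse as a block. Sharing 1 spread over all conditions leaves 8 residual degrees of freedom for n = 2 mice. Genes needed at least 1 RPKM in at least 4 libraries, and 11361 of 12652 did. Called means a two-sided p below 0.05 after Benjamini-Hochberg adjustment over all tested genes, and every adjusted p is from this limma fit unless an alternative is named. SE and 95% intervals come from the same fit. RPKM means ± SD are over the 2 mouse means. The block removes the constant difference between the 2 cultures of littermates. The p-values measure how far the differences between conditions varied from 1 culture to the other, pooled over all 9 conditions. The script was tested on simulated data.

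The mouse pairs the groups by the labels, since both treatments were given to the same cultures. Mouse differences in the 6 h atRA and DMSO groups correlated at 0.662 over genes. That was the highest of 36 pairs of conditions, whose median was 0.441 and lowest 0.0372. Named genes are the 15 highest and 10 lowest changes with the same sign in both mice and at least 1 RPKM in a group, up to 4 members of each list with the smallest p, and a set panel. Others named in the text were chosen after their values were seen. Members, lists and tests were chosen with earlier results of these data known. Alternatives changed the pseudocount, filter, scaling, block, samples fitted and tool (voom on recovered reads), and left out each library and mouse. Removing the length trend was added after seeing the data. Promoters are from RefSeq (GRCm38.p6). Some list members are counted but not reported here by name.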

Additional observations from a re-analysis of the deposited data

Results flagged for a closer look

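The 114 tested genes named in the text were screened at 6 h for a library that stood apart from the other 3 of its group by a gap test, which chance passes in about 1 of 20 groups. Of 228 groups, 7 held one. With DMSO these were Socs3 (11.98 RPKM) and Cyp1a1 (1.667 RPKM) in duplicate 1 of mouse 1, and Rxra (13.29 RPKM) and Dll1 (3.062 RPKM) in duplicate 2 of mouse 2. With atRA they were Cdx1 (48.09 RPKM) and Ppbp (1.562 RPKM) in duplicate 2 of mouse 2 and Fabp6 (0.4391 RPKM) in duplicate 1 of mouse 1.

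Among the same genes, the effect of atRA differed between 24 h and 6 h in 48 by the limma test of the difference, which was called at 1947 of all tested genes. Values are the 24 h effect minus the 6 h effect on the log2 scale. FXR response genes were all positive: Fgf15 1.747, Slc51b 1.698, Slc51a 1.068, Nr0b2 2.183, Fabp6 3.525, Osgin1 0.3372 and Nr1h4 0.3938. So were the PPAR genes Pdk4 (2.129), Acot1 (1.399), Acot2 (1.293), Slc25a20 (0.8168), Cidec (0.7389), Me1 (0.6431), Angptl4 (0.6415), Cpt1a (0.6375), Vnn1 (0.5356), Cpt2 (0.4217) and the receptor gene Ppara (0.3986). Sterol genes gave 0.6551 for Abcg5, 0.3335 for Scd2 and 0.3632 for Mvk. Immune and antioxidant genes gave 0.6335 for Oasl1, 0.5923 for Oasl2, 0.8444 for Psmb8, 0.377 for Il1rn, 0.241 for Hmox1 and 0.4531 for Srxn1.

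Retinoic acid response genes gave 3.339 for Cyp26b1, 0.5188 for Tgm2 and -0.5353 for Dhrs3, whose increase shrank. Other positive differences were Defb37 (1.252), Plat (1.052), Rnase4 (0.8771), Bcl3 (0.7406), Socs3 (0.7384), Sprr1a (0.6973), Mxd1 (0.6506), Duox2 (0.5316), Slc40a1 (0.4767), Nr1i2 (0.3788), Blvrb (0.3572) and Vil1 (0.3133). The difference was also negative for Olfm4 (-1.248), Dsg3 (-0.7436), Vsig1 (-0.6434), Mki67 (-0.6386), Tgm1 (-0.6024) and Ccnd2 (-0.3402).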

How the results depend on the processing

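No named gene called at 6 h changed sign under any alternative run. Of 65 named genes called, 30 stayed called in every alternative and 14 in every one but 1, of which 10 were lost only without the block for the mouse. Without the replicate block, calls fell to 177 at 6 h (126 higher, 51 lower, all among the 529), 983 for the change of effect and 40 for 9cisRA against atRA. With mouse and duplicate number as blocks the counts were 1289, 3144 and 521, with 36 libraries as separate samples 1341, 3197 and 562, and with voom on recovered reads 1283, 3153 and 535. Those 3 treat duplicates as replicates, and so do the fits without 1 mouse, which rest on 1 culture. With the 4 conditions at 6 h only, 895 and 305 genes were called. At an adjusted p below 0.01, 228 genes were called at 6 h, and 14 passed with at least 2-fold change. Leaving out a library or mouse gave 229 to 1061 genes at 6 h, 2766 to 4421 at 24 h, 635 to 2424 for the change of effect and 43 to 695 for 9cisRA against atRA. The cause of these shifts was not tested. Small list counts moved too. The number of genes that rose stayed within 1.5 times in every alternative for some lists. Among them were the FXR response, retinoic acid clearance, retinoic acid response, fetal-like and squamous lists. Without the block, the clearance list still lost Isx and the FXR list Osgin1. With 2 mice and low levels for Cyp26b1, Nr0b2 and Fabp6, small changes were not detectable.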
